A study of Homo sapiens with 42 samples.

Results

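The regions described here are the accessible regions of chromosome 19 that the deposited annotation assigned to zinc finger genes with numbered ZNF symbols. They were taken from the tables of 4 EGFR-mutant lung adenocarcinoma cell lines by gene symbol and position, leaving out the stretch from 20 Mb to 30 Mb on hg38. The annotated regions are those that a filter by the authors had kept, such as 69565 of 502962 counted regions in PC9 and 30709 of 350366 in HCC827. Beyond that filter no measured level entered the choice. The chosen regions numbered 1398 of 242490 annotated regions over the 4 tables and belonged to 196 genes. Of these genes 188 had a promoter region in at least 1 line and 129 had one in every line. A region within 1 kb of an annotated transcription start was called a promoter, and the rest are called other regions. PC9 had 277 promoters and 80 other regions, H1975 had 369 and 205, HCC827 had 162 and 22, and HCC2935 had 233 and 50.

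Zinc finger genes of this family sit in dense clusters on chromosome 19. Most encode a KRAB domain followed by an array of C2H2 zinc fingers, each of which reads a few bases of DNA. The KRAB domain recruits TRIM28, which brings in SETDB1, heterochromatin protein 1 and histone deacetylases, so that the protein represses its target sites, many of which are transposable elements. The gene bodies and 3′ ends of the clusters are themselves known for heterochromatin marked by H3K9me3, while the promoters usually lie in CpG islands and stay open. Several of these promoters are known to be silenced by DNA methylation in carcinomas.

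PC9, H1975, HCC827 and HCC2935 are established adenocarcinoma lines that depend on mutant EGFR. In each line a control group grew without drug for 21 days and then had DMSO for 3 days, and a drug-tolerant persister group (DTP) had 500 nM osimertinib, an EGFR inhibitor, for 24 days. A sequential combination group (combo) had 21 days of 500 nM osimertinib followed by 3 days of 150 nM AZD5153, a small-molecule inhibitor. In PC9 and H1975 alone, a further group (AZD5153) grew without drug for 21 days before 150 nM AZD5153 for 3 days. Whether the combo cells still had osimertinib over their AZD5153 days is not in the labels, so removal of osimertinib and addition of AZD5153 cannot be told apart in the combo. ATAC-seq, which counts transposase cuts in open DNA, was run on 3 libraries in each of 14 groups, 42 in all. In bulk cultures, a region that is open in more cells and a region that is more open in each cell cannot be told apart.

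Library totals over the regions of the tables were 3989287 to 5193390 counts in PC9, 6200672 to 10062505 in H1975, 1724680 to 4242868 in HCC827 and 3968690 to 8066287 in HCC2935. The labels give the libraries as biological triplicates. Within groups, the variance between libraries was 0.961 to 1.054 times that of counting in PC9, 0.968 to 1.259 times in H1975, 1.184 to 1.831 times in HCC2935 and 1.206 to 9.558 times in HCC827. PC9 libraries of a group thus differed by about counting noise. Adjusted p-values in PC9 and H1975 measure a spread that may be technical, and the counts of calls over member promoters and other regions in the treatment contrasts there are also given with the 3 libraries of a group summed to 1 sample and the spread taken from HCC2935. Promoters of the epithelial genes EPCAM, CDH1, KRT8, KRT18 and EGFR and of the lung factor NKX2-1 were annotated in all 4 lines, and those of the leukocyte genes PTPRC and CD3E in none. Of the other lung genes listed, NAPSA had a promoter region in H1975 and HCC2935 and SFTPB in H1975 and HCC827, so PC9 had neither. PECAM1 promoters reached 8.14 CPM in PC9 and 7.61 CPM in H1975, and a promoter of the mesenchymal gene COL1A2, annotated in HCC2935 alone, held 2.75 to 17.2 CPM there, and the part of these in the results was not tested.

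Promoter sequences from RefSeq (GRCh38.p14) were available for 172 of the 196 genes, with 221 entries of 300 bases from 250 before to 50 after the start. The median entry held 22 CpG dinucleotides, against 14 over all 35116 RefSeq promoter entries. The letters CCGGAAG, an ETS-type motif, occurred on either strand in 35.3% of the entries, against 10.3% of all entries. The GC-box letters GGGCGG occurred in 66.1% against 45% and CCAAT in 44.8% against 34.6%. AAGATGG, the core letters of YY1 sites, occurred in 9.5% against 5.84%, while CACGTG occurred in 4.52% against 7.26% and GCATGCG in 4.52% against 3.91%. All motifs were searched on both strands and none contains another. A match is a description of the sequence only.

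The 250 bases before the start are shown for 4 genes whose regions recur below, 5′ to 3′ on the plus strand with each CpG in capitals. ZNF543 (chr19:57320222-57320471) is shown because the region over its start had no call in PC9 or HCC2935 while a region far upstream lost most of its signal in their groups given AZD5153. ZNF613 (chr19:51927222-51927471) is shown because its promoter rose in the DTP group of 3 lines. ZNF69 (chr19:11887532-11887781) had the largest rise among the promoters named in HCC2935 DTP, and ZNF556 (chr19:2867085-2867334) fell in both AZD5153 arms of PC9. ZNF543 and ZNF613 held 22 and 17 CpGs in these bases, whereas ZNF69 held 7 and ZNF556 held 4, and ZNF556 carried the letters CCAAT or ATTGG 5 times.
ZNF543: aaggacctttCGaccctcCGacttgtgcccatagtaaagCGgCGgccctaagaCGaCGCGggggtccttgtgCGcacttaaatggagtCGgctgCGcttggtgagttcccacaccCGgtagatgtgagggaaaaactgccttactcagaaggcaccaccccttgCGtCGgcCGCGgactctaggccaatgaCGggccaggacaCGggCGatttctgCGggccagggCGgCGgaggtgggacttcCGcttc
ZNF613: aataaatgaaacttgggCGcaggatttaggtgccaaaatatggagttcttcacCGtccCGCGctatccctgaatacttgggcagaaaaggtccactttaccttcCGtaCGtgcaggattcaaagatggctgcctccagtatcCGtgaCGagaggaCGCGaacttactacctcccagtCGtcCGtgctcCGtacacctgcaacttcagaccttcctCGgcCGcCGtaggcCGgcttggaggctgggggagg
ZNF69: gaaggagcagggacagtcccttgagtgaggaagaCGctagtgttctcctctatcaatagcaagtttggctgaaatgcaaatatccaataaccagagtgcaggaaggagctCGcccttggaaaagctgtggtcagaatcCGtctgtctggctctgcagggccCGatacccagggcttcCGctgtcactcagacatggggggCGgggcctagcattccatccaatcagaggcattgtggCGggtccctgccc
ZNF556: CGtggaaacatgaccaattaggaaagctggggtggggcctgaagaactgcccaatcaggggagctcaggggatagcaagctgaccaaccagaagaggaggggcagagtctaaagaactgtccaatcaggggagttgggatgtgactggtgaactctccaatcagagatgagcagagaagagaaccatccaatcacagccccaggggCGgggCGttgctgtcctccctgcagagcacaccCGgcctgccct

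The median member promoter was more open in the osimertinib groups than in control in PC9 and HCC2935. Levels are CPM, counts scaled to a common library size within each line, so a level of 1 line is not on the scale of another. The median promoter in PC9 was at 10.9 to 11.7 CPM in the control libraries, 14.3 to 14.5 in DTP, 11.1 to 11.7 with AZD5153 alone and 14.1 to 15.3 in the combo, so the osimertinib groups did not overlap the others. The median over all PC9 promoters moved far less, from 8.14 to 8.33 CPM in control to 8.28 to 8.56 in DTP. In HCC2935 control libraries had a member promoter median of 10.7 to 11.5 CPM, DTP libraries 12.5 to 13.1 and combo libraries 13.3 to 14.7. The median over all HCC2935 promoters rose too, from 7.63 to 8.33 CPM in control to 8.38 to 8.97 in DTP and 9.32 to 10.1 in the combo.

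In H1975 the promoter median stayed between 13.4 and 15.6 CPM over all 12 libraries, with control and DTP overlapping. The other regions moved there instead. Their median was 7.71 to 7.93 CPM in control, 5.89 to 6.29 in DTP, 4.15 to 4.28 with AZD5153 and 4.57 to 4.92 in the combo, and no library of 1 group reached the range of another. Over all annotated non-promoters of H1975 the median was 6.14 to 6.37, 4.80 to 5.27, 4.2 to 4.38 and 5.01 to 5.12 CPM in the same groups. In HCC827 the libraries of a group spread too widely to order the groups, with promoter medians of 9.18 to 13.6 CPM for control libraries, 11.4 to 15.5 for DTP and 9.71 to 17.6 for the combo.

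**Figure D1:**
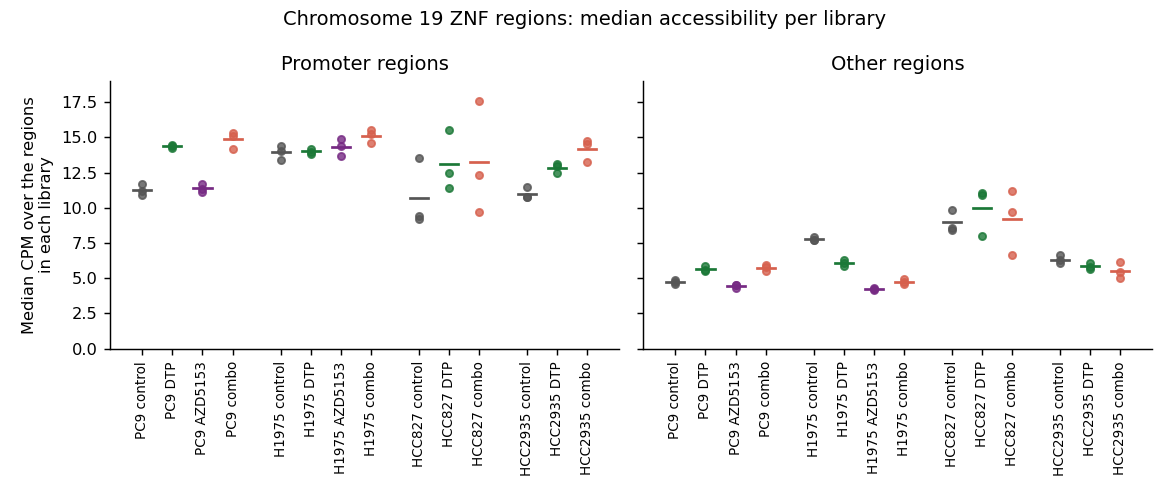
Median level in CPM (y axis) over the member promoters and over the other member regions for each of the 42 libraries, by line and treatment (x axis), with each point 1 library. PC9 DTP and combo libraries sat above the control and AZD5153 libraries at promoters, and H1975 other regions fell from 7.71 to 7.93 CPM in control to 4.15 to 4.28 with AZD5153.

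Peak lists of single libraries, called by the authors, gave a further count. Counting peaks with a −log10 q of at least 5, PC9 control libraries had one at 234 to 235 of the 277 promoters and DTP libraries at 250 or more, with 241 to 249 for AZD5153 and 243 to 254 for the combo. In H1975 the peaks at the 369 promoters numbered 326 to 338 in control, 354 to 359 in DTP, 332 to 354 with AZD5153 and 351 to 358 in the combo. At the 205 other regions of H1975 they went from 195 to 198 down to 169 to 177 in DTP, 126 to 155 with AZD5153 and 149 to 160 in the combo. In HCC2935 control libraries had a peak at 194 to 205 of 233 promoters, DTP libraries at 223 to 231 and combo libraries at 229 to 231. Over the genome such peaks rose there too, from 52807 to 73768 in control to 79594 to 93092 in DTP and 69915 to 98952 in the combo. PC9 had 62472 to 70010 in control and 63614 to 64938 in DTP, and H1975 had 97271 to 105695 and 100241 to 113125. The share of all promoters with a peak was not counted. HCC827 libraries ranged from 68 to 157 of 162 promoters, and the combo libraries at these ends had 11374 and 71539 such peaks over the genome, and the part of peak number in the range was not tested.

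Before any drug, more of the matched member promoters were called lower in PC9 than higher. Regions matched between the tables of PC9 and H1975 were fitted together on the control libraries with edgeR's quasi-likelihood test, and a call is an adjusted p under 0.05 over all matched regions tested. A matched region counted as a member, or as a promoter, where it was one in either table. The shares over all regions used the same rule. H1975 had 369 member promoters and 205 other regions, and PC9 277 and 80. Members annotated in H1975 alone tend to be lower in PC9 by this choice. Its part in the balance of directions was not tested. Of 307 member promoters, 44 were higher in PC9 and 196 lower, with a median log2 difference of -0.73, while of all promoters 42.6% were higher and 28.7% lower with a median of 0.19. Of 131 other regions, 19 were higher and 92 lower in PC9, with a median of -1.39, against 32.4% and 44.7% of all annotated non-promoters and a median of -0.24. Copy number differs between lines and cannot be told apart from opening here. With the median of each 10 Mb bin removed, the member promoters still had a median of -0.43 with 54 higher and 168 lower, and other chromosome 19 promoters had 0.18.

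ZNF667, a KRAB gene often methylated in carcinomas, had one of the largest promoter differences, at a region annotated in H1975 and not in PC9. It held 0, 0.244 and 0.953 CPM in the PC9 libraries and 36.6, 35.4 and 29.5 CPM in H1975, a log2 difference of -6.21 (SE 0.27, adjusted p = 2.31e-50). A promoter region of ZNF808, which acts in pancreas development, was at 0, 0.244 and 0.238 CPM in PC9 and 15.1, 13.5 and 15.1 CPM in H1975 (adjusted p = 2.06e-32), with 2 counts in all in PC9 and 287 in H1975, a ratio of 0.0126 (exact 95% counting interval 0.00152 to 0.046). Both regions were close to 0 in every PC9 library and open in every H1975 library, while another ZNF808 start averaged 22.8 CPM in PC9 and 66.6 CPM in H1975. The nearby genes ZNF439 and ZNF763 each had such a promoter region too, with means of 0.786 against 23.1 CPM and 0.768 against 24.0 CPM.

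Fewer promoters were the more open in PC9. One ZNF112 promoter region was at 3.34, 4.39 and 3.57 CPM in PC9 and at 0, 0.432 and 0 CPM in H1975, with 44 counts in all in PC9 and 3 in H1975, a ratio of 26.5 (exact 95% counting interval 8.51 to 134, adjusted p = 7.61e-14). The other start of the gene averaged 18.4 against 33.9 CPM. Regions of ZNF566 (6.11 against 1.06 CPM on average), ZNF114 (12.6 against 2.93) and ZNF574 (4.36 against 1.05) also had higher means in PC9.

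Between HCC827 and HCC2935 the number of calls was smaller. Members were again those of either table, and HCC2935 had more of them than HCC827. Of 205 member promoters 11 were higher in HCC827 and 32 lower, with a median of -0.15, against 20.1% and 16.9% of all promoters. Of 43 other regions 4 were higher and 10 lower, against 16.6% and 34.9% of all annotated non-promoters. ZNF69 was at 12.6, 17.1 and 17.5 CPM in HCC827 and at 1.53, 1.42 and 0.377 CPM in HCC2935 (3.71, SE 0.44, adjusted p = 6.55e-07). ZNF444, a zinc finger protein with a SCAN domain in place of KRAB, was at 4.02, 1.32 and 3.18 CPM in HCC827 and 23.7, 22.7 and 15.8 CPM in HCC2935 (-2.79, SE 0.37, adjusted p = 2.74e-06). ZNF587, ZNF667 and ZNF763 were also higher in HCC827 (log2 differences of 2.07, 2.06 and 1.85), and ZNF568, ZNF546 and ZNF677 lower (-2.28, -1.96 and -1.81).

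**Figure D2:**
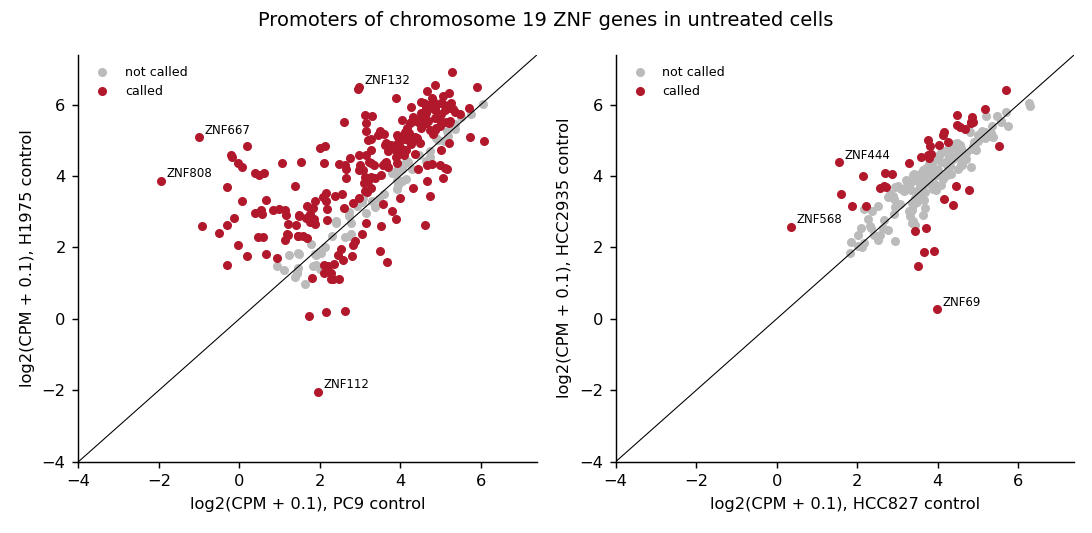
Control level of each matched member promoter region, as log2 of mean CPM plus 0.1, in H1975 (y axis) against PC9 (x axis) and in HCC2935 against HCC827, with each point 1 region, called regions in red and a line of equality. Of the 307 PC9 and H1975 promoters 196 were called on the H1975 side, and of the 205 HCC827 and HCC2935 promoters 32 were called on the HCC2935 side.

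In PC9 DTP far more member promoters rose than fell. Against control, 96 of 277 promoters rose and 4 fell, with a median log2 change of 0.26. The background over all PC9 promoters was 15.3% higher and 10.8% lower with a median of 0.06, and other chromosome 19 promoters had a median of 0.07. Every 10 Mb bin had a median between 0.18 and 0.34, and 242 of the 277 promoters had a positive change. Of the 80 other regions 24 rose and 8 fell, with a median of 0.14, against 17.5% and 29.3% of all annotated non-promoters and a median of -0.15. With the libraries of a group summed, 26 promoters rose and 2 fell and 17 other regions rose and 2 fell, where the background in either direction was 10.1% and 29.2%. In that fit the share of member promoters called in either direction was thus at the background and that of other regions below it. Rises still outnumbered falls. With bin medians removed, 68 promoters rose and 6 fell.

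ZNF559, a KRAB gene, rose from 5.59, 7.30 and 8.93 CPM in PC9 control to 19.1, 18 and 21.1 CPM in DTP, a log2 change of 1.39 (SE 0.15, adjusted p = 2.12e-16). ZNF160, a KRAB repressor linked to TLR4, rose from 2.03, 5.48 and 3.37 CPM to 10.3, 10.1 and 10.4 CPM (1.46, SE 0.22, adjusted p = 9.24e-10). ZNF442 rose from 1.27, 1.62 and 1.39 CPM to 3.31, 4.97 and 3.61 CPM (1.44, SE 0.35, adjusted p = 0.000296). That the DTP libraries lay above every control library in all 3 was a condition of naming them. In the combo ZNF559 and ZNF442 stayed above control, while ZNF160 came back to 4.70, 6.39 and 7.29 CPM and overlapped it.

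The few falls in PC9 were ZNF358, ZNF414 and ZNF444 among promoters that met the naming rule. ZNF358, whose product has zinc fingers but no KRAB domain, went from 35.9, 32.1 and 34.9 CPM at its promoter to 22.2, 20.3 and 21.3 CPM (-0.68, SE 0.10, adjusted p = 1.88e-09). A region of the same gene 2 to 3 kb upstream of another annotated start went the other way, from 5.85, 4.06 and 4.37 CPM to 21.0, 17 and 18.1 CPM (2.00, SE 0.18, adjusted p = 1.5e-25). AZD5153 alone took that region down to 0.961, 1.49 and 1.51 CPM, and the combo held it at 15.5, 17.9 and 13.9 CPM, so these regions of ZNF358 moved apart in DTP.

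The HCC2935 promoters leaned the same way with smaller numbers. In DTP 41 of 233 promoters rose and 3 fell, with a median of 0.20, against 20.5% and 12.4% of all promoters and a median of 0.12. The share that rose was near the background, and the share that fell was below it. Of 50 other regions 8 rose and 9 fell, against 25% and 26.9% of all annotated non-promoters. ZNF69 rose from 1.11, 0.998 and 0.263 CPM to 4.74, 7.32 and 5.18 CPM (2.77, SE 0.39, adjusted p = 1.42e-07). ZNF763 rose from 2.41, 2.75 and 2.37 CPM to 9.33, 9.53 and 8.41 CPM (1.86, SE 0.26, adjusted p = 2e-07) and ZNF225 from 1.11, 2.00 and 1.58 CPM to 6.48, 5.52 and 5.34 CPM (1.91, SE 0.33, adjusted p = 6.75e-06). The promoters of ZNF114, ZNF491 and ZNF799 fell, with log2 changes of -0.54, -0.63 and -0.42, and with libraries summed their adjusted p was 0.153, 0.0697 and 0.174.

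In H1975 member promoters had calls both ways, and more other regions fell than rose. Of 369 promoters 129 rose and 61 fell in DTP, with a median of 0.10, against 26.7% and 23.2% of all promoters and a median of 0.05. Of 205 other regions 25 rose and 103 fell, with a median of -0.30, against 25.2% and 44.9% of all annotated non-promoters and a median of -0.21. At 3 to 10 kb from a start 8 of 102 regions rose and 60 fell with a median of -0.59, against 24.5% and 44.3% of all annotated regions at that distance and a median of -0.20. With libraries summed, 53 promoters rose and 22 fell, and 14 other regions rose and 82 fell, where the background in either direction was 25.4% and 53.8%. Scaling by library size alone moved the median of all regions from 0.02 to 0.19 and the member calls from 154 higher and 164 lower to 242 higher and 122 lower, so the balance of directions over all H1975 members depends on the scaling.

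The largest named H1975 rise was not at a promoter. A region 1 to 2 kb from the start of ZNF814 went from 1.66, 1.92 and 1.45 CPM in control to 32.1, 36.4 and 35 CPM in DTP (4.35, SE 0.15, adjusted p = 1.35e-76). It stayed at 35.1, 34.6 and 33.3 CPM in the combo and was at 0.923, 0.778 and 0.510 CPM with AZD5153 alone, so it was open in both osimertinib groups and closed in both others. A region in an intron of ZNF426 did the opposite, with 19.8, 18.4 and 18.8 CPM in control and 0.915, 0.709 and 0.699 CPM in DTP (-4.60, SE 0.20, adjusted p = 3.16e-60). It was at 8.54, 9.33 and 9.07 CPM with AZD5153 and at 0.821, 0.223 and 0.301 CPM in the combo. An intergenic region whose nearest start is that of ZNF536, a gene known from neural tissue, fell from 8.30, 8.53 and 6.14 CPM to 0.572, 0.101 and 0.399 CPM (-4.39, SE 0.31, adjusted p = 3.96e-32).

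Among H1975 promoters, ZNF211 rose from 1.38, 1.32 and 0.482 CPM to 4.92, 4.97 and 5.39 CPM (2.27, SE 0.27, adjusted p = 3.08e-14). A region annotated to ZNF446, which carries SCAN and KRAB domains, rose from 3.46, 5.17 and 4.22 CPM to 17.7, 17 and 21.0 CPM (2.10, SE 0.14, adjusted p = 1.38e-34), and by RefSeq this region lies within ZNF324. Adjacent regions at an annotated start of ZNF763 fell. The first went from 15.2, 12.1 and 12.9 CPM to 2.97, 2.43 and 2.70 CPM (-2.30, SE 0.17, adjusted p = 1.18e-30), and the second from 21.2, 21.6 and 17 CPM to 7.55, 7.91 and 8.99 CPM (-1.28, SE 0.12, adjusted p = 6.18e-21). A start of ZNF763 further upstream was level in the same libraries, at 23.4, 23.7 and 20.6 CPM in control and 23.0, 26.4 and 23.6 CPM in DTP, and another region, which lies at ZNF700 by RefSeq, fell by 0.53 on the log2 scale.

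**Figure D3:**
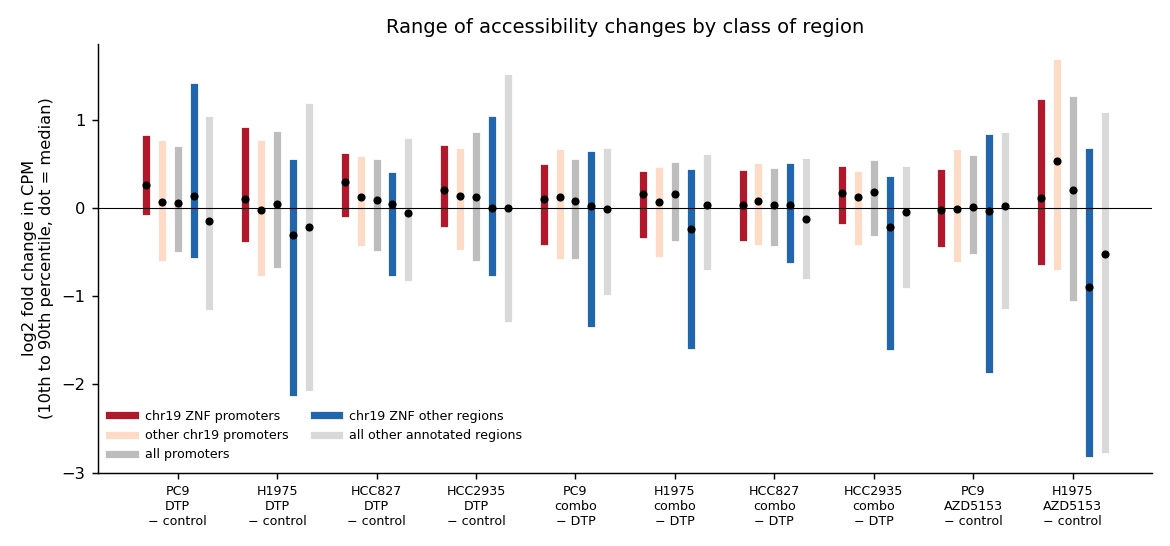
Range of log2 fold changes (y axis) in each line and contrast (x axis), as bars from the 10th to the 90th percentile with a dot at the median, for member promoters, other chromosome 19 promoters, all promoters, member other regions and all other annotated regions. The member promoters of PC9 DTP had a median of 0.26 against 0.06 for all promoters, and the H1975 other regions with AZD5153 had a median of -0.89.

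Few promoters moved alike in every line with enough calls. Of 231 promoter positions tested in PC9, H1975 and HCC2935, 4 rose in DTP in all 3 lines (ZNF317, ZNF613, ZNF480 and ZNF552), 0 fell in all 3, and 13 had opposite calls in a pair of lines. Over all 23915 promoter positions tested in these lines 1.81% rose in all 3, 1.81% fell and 6.85% had opposite calls. With libraries summed, ZNF552 was the 1 of the 4 that had an adjusted p under 0.05 in all 3 lines, while in PC9, H1975 and HCC2935 it was 0.172, 0.299 and 0.052 for ZNF317, 0.295, 0.164 and 0.0376 for ZNF613 and 0.293, 0.07 and 0.0405 for ZNF480. ZNF613 went from 8.65, 8.93 and 6.15 CPM to 13.6, 8.48 and 9.64 CPM in PC9 (0.44, adjusted p = 0.0448), from 17.6, 16.6 and 16.7 CPM to 22.0, 22.5 and 22.9 CPM in H1975 (0.41, adjusted p = 0.000129) and from 6.11, 6.49 and 6.31 CPM to 10.9, 10.4 and 8.73 CPM in HCC2935 (0.67, adjusted p = 0.00958). The PC9 groups of ZNF613 overlapped and those of the other lines did not, and with bin medians removed the PC9 call was lost (adjusted p = 0.237). ZNF552 had log2 changes of 0.88, 1.16 and 1.35, the last at a region that the HCC2935 table leaves unannotated. Counts by gene rather than position take any start of a gene, and no share over all genes was computed to set beside them. By this count 9 genes had a promoter that rose in DTP in at least 3 lines and 0 had one that fell. ZNF331, an imprinted KRAB gene, was one of them, with rises of 1.10, 0.64 and 1.20 at its downstream starts in PC9, H1975 and HCC2935, the last at another region than the first ones. Its upstream promoter rose by 0.32 in PC9 and fell by 0.29 in H1975. ZNF160, ZNF284, ZNF480, ZNF613 and ZNF787 were the others named, and the ZNF284 region of HCC2935 lies at the start of ZNF222 by RefSeq.

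ZNF439 had the 1 other position, of 62 tested, that rose in DTP in all 3 lines, and 3.83% of all 35464 such positions did. It lies in an exon 7445 bases from the start, and the H1975 table leaves it unannotated. In PC9 it went from 2.03, 2.03 and 1.59 CPM to 14.8, 10.1 and 14.5 CPM (2.80, SE 0.24, adjusted p = 1.11e-26), in H1975 from 0.692, 1.08 and 1.20 CPM to 2.29, 2.94 and 1.897 CPM (1.23, SE 0.34, adjusted p = 0.00114) and in HCC2935 from 0, 0.499 and 0.526 CPM to 5.69, 6.07 and 7.92 CPM (4.34, SE 0.47, adjusted p = 3.29e-10). AZD5153 alone left 3 counts over the PC9 libraries, against 26 in control, a ratio of 0.107 (exact 95% counting interval 0.0206 to 0.348). In the combo the region stayed open in PC9, at 13.9, 15.3 and 9.43 CPM, and fell in HCC2935 to 2.37, 2.94 and 2.59 CPM.

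With AZD5153 alone, 23 of 277 PC9 promoters rose and 32 fell, with a median of -0.02, against 10.4% and 12.2% of all promoters. Of 80 other regions 13 rose and 23 fell, against 17.3% and 22.3% of all annotated non-promoters, and the regions over 10 kb from a start held 10 of these falls among 23 regions, against 22.7% of all annotated regions at that distance. With libraries summed, 4 promoters rose and 5 fell, and 2 other regions rose and 21 fell, where the background in either direction was 7.05% and 22.5%.

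In H1975 AZD5153 alone moved more members than any other contrast tested there. Of 369 promoters 149 rose and 111 fell, with a median of 0.11, against 43.8% and 24.4% of all promoters and a median of 0.20. Of 205 other regions 27 rose and 144 fell, with a median of -0.89, against 20.4% and 54.1% of all annotated non-promoters and a median of -0.52. The 12 regions in a 3′ UTR included 11 that fell and 1 that rose, with a median of -2.51, against 48.3% and 22.9% of all 3′ UTR regions and a median of -0.35. With libraries summed, 108 promoters rose and 52 fell, and 22 other regions rose and 129 fell, where the background in either direction was 45.1% and 62%.

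The H1975 directions followed position along the chromosome. From 0 to 10 Mb 32 of 34 member promoters rose and 1 fell, with a median of 0.95, and from 10 to 20 Mb 52 of 69 rose and 6 fell, with a median of 0.70. From 50 to 60 Mb 30 of 187 rose and 90 fell, with a median of -0.23. The other promoters of these bins had medians of 0.74, 1.06 and -0.21, so neighbouring genes outside the family moved likewise. At other regions of the last bin 4 of 121 rose and 106 fell, and their median of -1.30 lay below the -0.63 of other non-promoters there. With bin medians removed, the member calls went from 176 higher and 255 lower to 116 higher and 272 lower.

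A region 18 kb upstream of ZNF543, a KRAB gene, fell with AZD5153 alone in PC9 and H1975. In the combo against DTP it fell in PC9, H1975 and HCC2935. In PC9 it held 24.9, 24.1 and 28.6 CPM in control, 18.3, 19.2 and 15.9 CPM in DTP, 1.73, 2.04 and 1.69 CPM with AZD5153 and 0.979, 1.70 and 1.07 CPM in the combo. It fell by 3.81 on the log2 scale (SE 0.19, adjusted p = 6.08e-67) with AZD5153 against control and by 3.81 (SE 0.24, adjusted p = 5.57e-46) in the combo against DTP. In H1975 it held 19.8, 22.7 and 21.1 CPM in control, 21.8, 20.2 and 21.0 CPM in DTP, 5.31, 4.98 and 4.59 CPM with AZD5153 and 8.21, 11.4 and 11.5 CPM in the combo, with log2 changes of -2.10 and -1.0. In HCC2935 the combo took it from 6.96, 7.18 and 5.98 CPM to 0.790, 0.981 and 0.863 CPM (-2.89, SE 0.31, adjusted p = 1.04e-08). The region over the printed ZNF543 promoter stayed between 29.2 and 38.4 CPM over the 12 PC9 libraries and between 22.2 and 30.9 CPM over the 9 HCC2935 libraries, with no call there. In H1975 it rose by 0.22 in the combo, and a weaker region at the edge of the promoter fell by 0.89 with AZD5153.

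ZNF543 was 1 of 3 other-region positions, of 62, that fell in the combo against DTP in PC9, H1975 and HCC2935, against 1.18% of all such positions. All 3 had an adjusted p under 0.05 in each line with libraries summed. The second lies 12.4 kb upstream of ZNF121 and the third in the 3′ UTR of ZNF551. The ZNF121 region went from 9.34, 9.52 and 9.04 CPM in PC9 DTP to 3.72, 3.19 and 2.14 CPM in the combo, with log2 changes of -1.60, -1.80 and -1.80 in PC9, H1975 and HCC2935. In H1975 it was at 19.1, 19.95 and 16 CPM in control and 19.6, 22.1 and 21.8 CPM with AZD5153 alone, with no call. In H1975 DTP it had already fallen against control (-1.02, SE 0.12, adjusted p = 4.31e-15 in edgeR's quasi-likelihood test), and it fell further in the combo. The ZNF551 region went from 32.1, 30.2 and 29.8 CPM in H1975 control to 2.08, 2.18 and 1.53 CPM with AZD5153 alone (-4.01, SE 0.15, adjusted p = 4.8e-70), and from 27.2, 29.4 and 28.2 CPM in DTP to 17.7, 16.6 and 16.3 CPM in the combo (-0.75, SE 0.09, adjusted p = 8.32e-13).

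**Figure D4:**
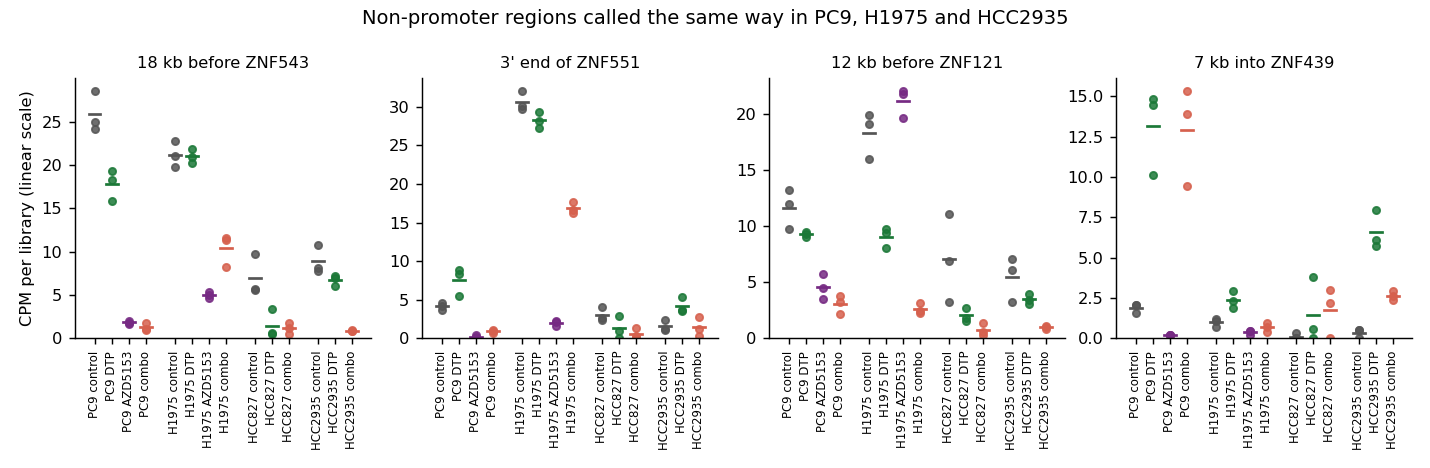
CPM on a linear scale (y axis) at 4 non-promoter positions called the same way in PC9, H1975 and HCC2935, by line and treatment (x axis), with each point 1 library and each bar the mean of 3. The region 18 kb before ZNF543 held 0.979 to 2.04 CPM in the AZD5153 and combo libraries of PC9, and the ZNF439 region rose in the DTP libraries of PC9 to 10.1 to 14.8 CPM.

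Of the falls in other regions, many recurred between the AZD5153 arms, which share no libraries. In H1975 144 fell with AZD5153 against control and 72 in the combo against DTP, and 58 fell in both, 40.3% of the first list and 80.6% of the second. Over all annotated non-promoters of H1975 these shares were 16% and 66.6%. In PC9 23 and 14 fell and 10 did in both, 43.5% and 71.4%, where all annotated non-promoters had 34.2% and 45.9%. At H1975 promoters 48 rises were in common, 32.2% of 149 and 41% of 117, where all promoters had 29.2% and 45.6%, and 13 falls were, 11.7% of 111 and 54.2% of 24, where all had 12.8% and 48.4%. Of these 111 falls with AZD5153 alone 32 were calls of a rise in the combo. At PC9 promoters 11 rises were in common, 47.8% of 23 and 21.6% of 51, against 30.9% and 18.5% of all promoters, and 4 falls were, 12.5% of 32 and 16.7% of 24, against 27.6% and 35.9%.

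In the combo against DTP, 51 of 277 PC9 promoters rose and 24 fell, against 17.4% and 9.39% of all promoters, and 11 of 80 other regions rose and 14 fell, against 14.4% and 16.6% of all annotated non-promoters. Summing libraries left 2 promoters higher and 7 lower and 3 other regions higher and 9 lower, with a background of 5.08% and 12.3%, and with bin medians removed the member calls went from 62 higher and 38 lower to 38 higher and 44 lower. In H1975 117 of 369 promoters rose and 24 fell, with a median of 0.16 equal to that of all promoters, against 28% and 6.48%. Of the 205 other regions there 25 rose and 72 fell, with a median of -0.24, against 18.4% and 13% and a median of 0.03 over all annotated non-promoters. Summed, 0 promoters rose and 8 fell, with 34 at an unadjusted p under 0.05 in edgeR's likelihood ratio test, and 4 other regions rose and 43 fell, against 3.52% and 8.59% in either direction. In HCC2935 17 of 233 promoters rose and 2 fell, against 6.83% and 2.89%, and 0 of 50 other regions rose and 11 fell, against 2.7% and 12.4%. With edgeR 18 of these 50 had an unadjusted p under 0.05 in either direction, and DESeq2 called 9. The share of other regions that fell was thus above the background in H1975 and, on few regions, in HCC2935, and close to it in PC9. The share of promoters that rose was close to the background in all 3 lines.

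H1975 calls in this contrast depend on scaling, with 142 members higher and 96 lower in the reported fit, 91 and 112 with library size only and 193 and 76 with bin medians removed. HCC2935 had 17 higher and 13 lower, and 8 and 15 with bin medians removed. At the level of single regions the changes were large. In an intron of ZNF567, H1975 went from 5.49, 5.78 and 5.79 CPM in DTP to 0.117, 0.668 and 0.401 CPM in the combo (-3.78, SE 0.31, adjusted p = 8.06e-24). In an exon region of ZNF350, a KRAB protein that binds BRCA1, it went from 3.77, 2.84 and 3.69 CPM to 0.234, 0.668 and 0.401 CPM (-2.93, SE 0.34, adjusted p = 6.78e-13). Both regions were already below their control level in DTP, having been at 9.76 to 11.4 CPM and 6.09 to 7.33 CPM.

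At promoters, the ZNF763 pair of regions in H1975 fell a second time in the combo, to 0, 0.446 and 0.1 CPM (-3.78, SE 0.45, adjusted p = 7.31e-13) and to 1.41, 0.446 and 0.301 CPM (-3.54, SE 0.25, adjusted p = 6.8e-29). ZNF556, whose printed promoter has few CpGs, was at 7.63, 5.48 and 5.95 CPM in PC9 control and 11.7, 8.90 and 12.6 CPM in DTP (0.82, SE 0.19, adjusted p = 0.000101). It was at 1.15, 1.67 and 1.88 CPM with AZD5153 (-1.98, SE 0.29, adjusted p = 1.24e-09) and 2.35, 2.77 and 2.79 CPM in the combo (-2.07 against DTP, SE 0.23, adjusted p = 4.37e-16). ZNF302, a KRAB gene, was the one promoter position that rose in the combo in PC9, H1975 and HCC2935, with log2 changes of 0.74, 0.56 and 0.83, but DTP and combo libraries overlapped in H1975 and HCC2935 and its adjusted p with summed libraries was 0.0802, 0.258 and 0.0433. ZNF296, which lacks a KRAB domain and is known from pluripotent cells, was the one that fell, with -0.69, -0.71 and -0.67. Each was 0.433% of the 231 member promoter positions tested in these lines. Over all promoter positions 1.53% rose in all 3 lines and 0.381% fell, so the share that rose was below the background and the share that fell near it. In PC9 ZNF296 went from 23.2, 21.5 and 19.1 CPM in DTP to 12.1, 13.8 and 13.7 CPM, in H1975 from 13.5, 13.1 and 14.4 CPM to 8.91, 7.13 and 9.03 CPM and in HCC2935 from 13.8, 15.9 and 13.3 CPM to 9.01, 9.81 and 7.94 CPM. None of the 3 lines overlapped between the groups at ZNF296, though its adjusted p with summed libraries was 0.0587, 0.0527 and 0.0691.

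Of the promoters that rose with AZD5153 alone in H1975, 32 and 52 lay in the first and second 10 Mb. ZNF490 went from 2.07, 1.92 and 1.81 CPM to 15.7, 12.9 and 15.4 CPM (2.93, SE 0.18, adjusted p = 1.86e-38), and with bin medians removed the change was 1.94. ZNF792, at 35 Mb, had 3 counts over the control libraries and 6.23, 6.38 and 6.63 CPM with AZD5153, a ratio of 56.9 (exact 95% counting interval 19.1 to 279). ZNF444 closed instead, from 40.4, 38.1 and 35.1 CPM to 0.807, 2.64 and 1.73 CPM in H1975 (-4.51, SE 0.15, adjusted p = 6.75e-79) and from 7.12, 7.10 and 6.95 CPM to 1.54, 1.86 and 1.32 CPM in PC9 (-2.15, SE 0.29, adjusted p = 9.14e-12). ZNF460 (-2.55) in H1975 and ZNF814 (-1.70) and ZNF556 in PC9 were the other promoters named among the falls.

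The combo and AZD5153 responses were compared by the interaction, the change from DTP to combo less the change from control to AZD5153. In PC9 33 of 277 promoters had a positive and 12 a negative interaction, against 13.7% of all promoters called in either direction. All 10 calls among the 80 other regions were positive, 12.5% of these regions, where 12% of all annotated non-promoters had a positive call, 10.7% a negative one and 22.8% either, with 21 at an unadjusted p under 0.05 in edgeR and 8 called by DESeq2. In H1975 121 promoters had a positive and 114 a negative one, against 52.3%, and 100 other regions had a positive and 26 a negative one, against 64.2%. The other regions of H1975 had a median of 0.60, near the 0.54 of all annotated non-promoters, where a positive value is a smaller fall or larger rise in the DTP state. The ZNF444 promoter was at 26.4, 28.4 and 26.1 CPM in H1975 DTP and 14.0, 13.3 and 14.8 CPM in the combo, a smaller fall than that from control (interaction 3.57, SE 0.20, adjusted p = 5.2e-42). Member calls in H1975 went from 221 positive and 140 negative to 142 and 195 with library size only and to 264 and 59 with bin medians removed, and in PC9 from 43 and 12 to 21 and 16 and to 25 and 13. With libraries summed, 1 promoter and 6 other regions of PC9 had a positive interaction and 0 a negative one, with 17 and 11 at an unadjusted p under 0.05 in edgeR's likelihood ratio test, and H1975 had 33 and 55 promoters and 69 and 15 other regions.

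HCC827 gave no call at any member. Under edgeR's quasi-likelihood test 0 of 162 promoters and 0 of 21 other regions tested passed in DTP against control or in the combo against DTP. The background was 0% of all promoters in both, and 0.0957% and 0% of all annotated non-promoters. At an unadjusted p under 0.05 there were 2 promoters and 0 other regions in DTP and 0 and 1 in the combo, and DESeq2 called 0 members in both. Replicate numbers paired the HCC827 libraries, and with the replicate as a block 0 members passed, against 1.62% of all promoters and 6.91% of all annotated non-promoters in DTP and 0.00722% and 0.0299% in the combo. At an unadjusted p under 0.05 the block gave 18 promoters and 3 other regions in DTP and 5 and 3 in the combo. The median promoter change in DTP was 0.29, beside 0.26 in PC9. The biological coefficient of variation was 44.86% in HCC827 and 0.99% in PC9, and its part in the lack of calls was not tested.

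The 9 genes listed for silencing by promoter methylation in carcinomas (ZNF132, ZNF154, ZNF331, ZNF382, ZNF471, ZNF582, ZNF667, ZNF671 and ZNF677) included several that were far less open in PC9 than in H1975 at baseline. The matched member promoters as a class leaned the same way, as given above. ZNF132 was at 9.43, 7.56 and 6.43 CPM in PC9 and 91.6, 86.2 and 90.4 CPM in H1975 on the matched scale (-3.54, SE 0.11, adjusted p = 4.56e-66). ZNF471 was at 8.61 against 52.6 CPM on average, ZNF677 at 5.93 against 45.8 and ZNF582 at 19 against 45.8. With bin medians removed, the log2 difference went from -3.54 to -2.85 for ZNF132, from -2.62 to -1.93 for ZNF471, from -2.92 to -2.23 for ZNF677 and from -1.25 to -0.56 for ZNF582, and that of ZNF671 turned from -0.44 to 0.25 (adjusted p = 0.0986). The ZNF667 promoter had no annotated region in PC9 and that of ZNF154 had one in H1975 alone. In PC9 DTP the most open promoter region of ZNF132, ZNF331, ZNF471, ZNF582 and ZNF677 rose, by 0.56, 0.32, 0.79, 0.44 and 0.58, and ZNF671 had no call. Of the 277 member promoters of PC9 96 rose, and of all PC9 promoters 15.3% did. For ZNF471 the rise was a move from 7.88, 7.71 and 5.95 CPM to 14.2, 11.8 and 11 CPM. With libraries summed the adjusted p was 0.0251 for ZNF471 and 0.174 to 0.393 for the other 4.

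In H1975 DTP the same list was mixed. ZNF132 fell by 0.61, ZNF382 by 0.91, ZNF331 by 0.29 and ZNF667 by 0.23 on the log2 scale, while ZNF154 rose by 0.68 and ZNF671 by 0.33. Of all H1975 promoters 26.7% rose and 23.2% fell. ZNF667 fell with AZD5153 alone from 30.6, 29.6 and 24.0 CPM to 8.77, 9.02 and 8.97 CPM (-1.65, SE 0.11, adjusted p = 5.4e-33), and stood at 22.6, 21.6 and 25.6 CPM in the combo. In HCC2935 and HCC827 the most open promoter region of no listed gene was called in DTP. Of all promoters 20.5% rose and 12.4% fell in HCC2935, and 0% were called in HCC827. ZNF274, a KRAB protein that binds the 3′ ends of zinc finger genes and recruits SETDB1 there, rose in PC9 DTP from 19.8, 19.1 and 20.8 CPM to 25.5, 30.2 and 29.9 CPM (0.52, SE 0.11, adjusted p = 3.34e-05), with a summed-library adjusted p of 0.119. Its most open promoter region had changes of -0.04 and 0.08 with no call in H1975 and HCC2935, and a second HCC2935 region rose by 0.55.

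**Figure D5:**
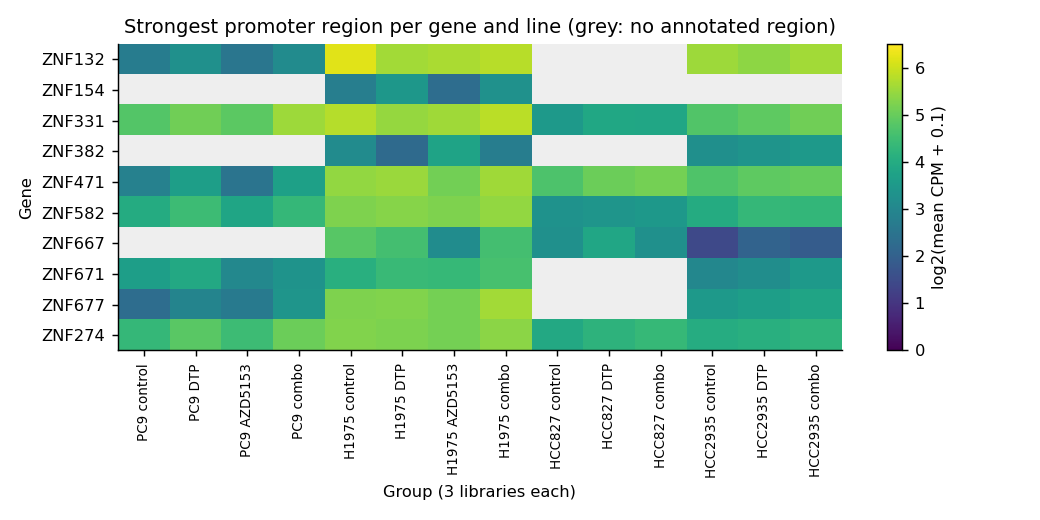
Colour map of log2 of mean CPM plus 0.1 at the most open promoter region of the 9 genes listed for methylation and of ZNF274 (rows) in each of the 14 groups of 3 libraries (columns), grey where a line had no annotated promoter region. Colours compare groups within a line, such as H1975 ZNF667 with AZD5153 at 8.77 to 9.02 CPM against 24.0 to 30.6 CPM in control.

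The partners through which KRAB proteins repress were followed at their own promoters, with 20 genes listed. TRIM28 and DAXX had no annotated promoter region in any line, leaving 18 in PC9 and H1975, 13 in HCC827 and 17 in HCC2935. In PC9 DTP 6 rose and 1 fell, 33.3% and 5.56% of the list against 15.3% and 10.8% of all promoters. In H1975 DTP 3 rose and 5 fell, 16.7% and 27.8% against 26.7% and 23.2%, and in HCC2935 DTP 3 rose and 1 fell, 17.6% and 5.88% against 20.5% and 12.4%. MORC2, an ATPase of the HUSH silencing pathway, rose by 1.10 (SE 0.22) in PC9 DTP. DNMT3A, a DNA methyltransferase, fell by 0.51 (SE 0.11) there, and with bin medians removed by 0.20 (adjusted p = 0.171). In H1975 AZD5153 raised 11 and lowered 2, 61.1% and 11.1% against 43.8% and 24.4% of all promoters. The HUSH subunit TASOR rose by 0.89 (SE 0.13), and by 0.59 with bin medians removed. DNMT1, the maintenance methyltransferase, and its partner UHRF1 lie on chromosome 19, and their rises of 1.13 (SE 0.09) and 1.11 (SE 0.12) became 0.14 (adjusted p = 0.261) and 0.33 (adjusted p = 0.0183) with bin medians removed. The combo against DTP raised 3 and lowered 1 in PC9, against 17.4% and 9.39% of all promoters, raised 7 and lowered 0 in H1975, against 28% and 6.48%, and raised 1 and lowered 0 in HCC2935, against 6.83% and 2.89%, and HCC827 had 0 calls in either contrast. AZD5153 alone raised 3 and lowered 1 in PC9, against 10.4% and 12.2%. With libraries summed, 1 of the list was called in PC9 DTP, 1 in H1975 DTP and 7 in H1975 with AZD5153 alone. Summed, edgeR's likelihood ratio test called 0 in the combo of PC9 or H1975 and 0 in PC9 with AZD5153 alone, with 0, 2 and 1 at an unadjusted p under 0.05.

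Promoter positions recurred across lines more than the others did. Joined across the tables, the members lay at 666 positions, 420 at promoters and 246 elsewhere. Of the promoter positions 137 were annotated in all 4 tables and 142 in 1 table, while of the other positions 9 were in all 4 and 178 in 1. By RefSeq, 95.2% of the 1041 promoter regions lay within 1 kb of the gene they were assigned to, and 39.2% of the 357 other regions did. The assignment of other regions to a gene is therefore that of the nearest start. Many of these genes are near-identical copies of their neighbours, so values of such copies are uncertain if reads that map to several places were kept.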

How the data were processed

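ATAC-seq was run in 42 libraries of 4 cell lines. Per the submitters' processing notes, reads were aligned to hg38 with BWA 0.7.17, handled with SAMtools 1.9 and deepTools 3.4, peaks were called with MACS2 2.2.6, reads per region were counted with featureCounts 2.0.0 and regions were annotated with ChIPseeker 1.29.1. The extract protocol in the labels describes H3K27ac ChIP, while the titles and design text name ATAC-seq, and the values were read as ATAC-seq. The count tables were deposited by the authors as whole-number read counts per 502-base region, 1 table per line, not normalized. The peak files deposited by the authors hold peaks of single libraries with −log10 p and −log10 q values, of which peaks with a −log10 q of at least 5 were used. The sources used here do not state how reads that map to several places were treated.

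Counts were fitted per line over all regions of the table with edgeR 4.0.16 in R 4.3.3 (filterByExpr, TMM factors, quasi-likelihood test) on group means, and p-values were adjusted by the Benjamini-Hochberg method over all regions tested. A call is an adjusted p under 0.05. Levels are CPM on TMM-scaled library sizes. Summed libraries were tested with edgeR's likelihood ratio test and the dispersion of HCC2935, so they assume that PC9 and H1975 vary like HCC2935. Baseline comparisons used regions matched between tables by at least 50% reciprocal overlap, and a matched region was a member where it was one in either table. Intervals on ratios of few counts are exact 95% binomial intervals and cover counting error only. DESeq2 1.42.0 was an alternative, and the fits were tested on simulated data.

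Members, lists and named genes were chosen with earlier results of these data known. Named regions were the called regions whose libraries did not overlap between groups and whose mean level was above the median, taken as the 3 largest rises and falls at promoters and the 2 largest elsewhere per contrast and line, up to 6 genes called alike in at least 3 lines, the 4 largest baseline differences and the 2 largest interactions in each direction, the methylation list, ZNF274, ZNF543 and ZNF763. Regions called alike in 3 lines, the position and distance groups and ZNF358 across its starts were described after their values were seen. Same-numbered HCC827 libraries deviated together (correlations of 0.261 to 0.828 between groups), so its numbers were taken to pair the libraries, and the replicate block is given beside its results.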

Additional observations from a re-analysis of the deposited data

Results flagged for a closer look

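The change from DTP to combo was compared with that from control to AZD5153 by the interaction term of the edgeR fit. The difference passed at 45 of 277 member promoters and 10 of 80 other member regions in PC9 and at 235 of 369 and 126 of 205 in H1975. Over all promoters and all annotated non-promoters the shares were 13.7% and 22.8% in PC9 and 52.3% and 64.2% in H1975. Among the named promoters, ZNF444 had an interaction of 2.48 in PC9 (adjusted p = 3.49e-08) and 3.57 in H1975 (adjusted p = 5.2e-42) on the log2 scale. In H1975 its fall from DTP to combo was smaller than that from control to AZD5153. In PC9 the interaction was larger than the fall with AZD5153 alone, so ZNF444 did not fall from DTP to combo there. The PC9 promoter had already fallen in DTP against control, with a peak in 3 control libraries, 1 DTP library and 2 combo libraries. ZNF776 had 2.59 in H1975 (adjusted p = 3.36e-20) and ZNF814 had 1.14 in PC9 (adjusted p = 0.000859).

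Negative interactions were found for ZNF792 (-5.25, adjusted p = 1.79e-11) and ZNF490 (-3.11, adjusted p = 1.58e-18) in H1975, where AZD5153 alone raised the promoter and the combo against DTP had no call. ZNF792 had 3 counts over the control libraries and 25 over the DTP libraries, so its value rests on few counts. In PC9 negative interactions were found for ZNF428 (-1.22, adjusted p = 0.0213) and ZNF17 (-1.21, adjusted p = 0.0029). With libraries summed, the adjusted p of ZNF814, ZNF17 and ZNF428 in PC9 was 0.0701, 0.0892 and 0.161.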

How the results depend on the processing

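The number of member regions called was 132 in PC9 DTP against control, 100 in combo against DTP, 91 in AZD5153 against control and 55 in the interaction. With DESeq2's Wald test these became 80, 42, 54 and 19, with libraries summed 47, 21, 32 and 7, and with an absolute log2 fold change of at least 1 they became 29, 14, 24 and 13. With no filter the first was 86 and the interaction 22. In H1975 the counts were 318, 238, 431 and 361. Summing libraries gave 171, 55 and 172 for DTP, combo and the interaction, DESeq2 gave 142 for the combo, and the log2 limit of 1 gave 96, 44, 186 and 141. In HCC2935 DTP gave 61 and the combo 30. For DTP, library size only gave 94, DESeq2 35, summing 36 and the log2 limit 17. For the combo, DESeq2 gave 14, no filter 13, summing 11 and the log2 limit 9. At baseline 351 in PC9 against H1975 and 57 in HCC827 against HCC2935 became 226 and 36 with the log2 limit.

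Leaving out each library in turn gave 102 to 118, 70 to 84, 70 to 79 and 38 to 51 calls in PC9, and 282 to 304, 184 to 224, 405 to 421 and 336 to 361 in H1975. HCC827 gave 0 to 0 in both contrasts. HCC2935 gave 46 to 62 for DTP and 16 to 22 for the combo, with 16 without DTP replicate 1 or 2, 17 without DTP replicate 3, and 18 and 19 without combo replicates 2 and 3. The baselines gave 341 to 349 and 39 to 92, the 92 without HCC827 control replicate 3. With the replicate number as a block, PC9 gave 129 calls for DTP and 98 for the combo, and HCC827 0 in both, and no count over members moved by over 1.5 times. In PC9, H1975 and HCC2935 the numbers did not pair the libraries, with correlations of -0.01 to 0.013, -0.062 to 0.015 and -0.074 to 0.206.

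Of 1560 alternative values of 108 named effects, 1410 kept their direction and side of the threshold, 150 kept the direction but lost the call and 0 reversed. Many of these effects were named for being large, called and without overlap between groups in the same libraries. Refits of those libraries could hardly reverse them, so the lack of reversals was largely set by the naming rule. Summing libraries took the call from 36 of the 108. The cause of these changes was not tested. Regions at few CPM rest on few counts, so their fold changes are the least certain. HCC827 had the fewest counts and the widest spread, and their part in its lack of calls was not tested.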
